A study of Rattus norvegicus with 12 samples.

Results

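The genes of oxidative phosphorylation were followed through the knockdown of 3 RNA-binding proteins in rat smooth muscle cells. Members were chosen by gene symbol: the nuclear genes for subunits of the respiratory complexes (Nduf, Sdh, Uqcr, Cox4 to Cox8 and Atp5 families, Cyc1 and Cycs) and the mitochondrially encoded COX1 to COX3, ATP6, ATP8, CYTB, ND1 to ND6 and ND4L. The rule found 114 of the 33294 genes in the count table, 101 of them nuclear and 13 mitochondrial. It also takes in the Ndufaf genes, which encode assembly factors of complex I and are not part of the finished enzyme.

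The cells were PAC1, a smooth muscle cell line from rat pulmonary artery, grown under conditions for its more differentiated state. The study reports that control cells of this experiment were less differentiated than those of its other RNA-seq experiment. Each of the 4 groups (control siRNA, RBPMS knockdown, RBFOX2 knockdown and QKI knockdown) held 3 libraries, and all 12 cultures received 90 pmol of siRNA by reverse transfection and the same dose again. The labels place the repeat after 24 h and the harvest 48 h later, while the study's methods name later times, and which of them applies was not resolved. As a model the groups are limited to 1 cell line and to residual rather than absent protein. RBPMS, RBFOX2 and QKI (gene symbol Qk in rat) bind RNA and act mainly on alternative splicing.

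Oxidative phosphorylation takes place in the inner mitochondrial membrane. Complex I (NADH dehydrogenase) and complex II (succinate dehydrogenase) pass electrons to ubiquinone, complex III hands them to cytochrome c and complex IV (cytochrome c oxidase) to oxygen, while ATP synthase, or complex V, uses the resulting proton gradient. All of these except complex II are built from subunits of both genomes, and the mitochondrial subunits are cut from long polycistronic transcripts, most of them from the same strand of the circular genome. Smooth muscle contracts for long periods at a low cost in ATP and draws on both glycolysis and respiration.

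Libraries held between 110595399 and 151665474 counts, and 18438 genes with enough counts were tested. Rbpms fell from a mean of 40.7 to 7.21 CPM (counts scaled to a common effective library size), Rbfox2 from 154 to 37.3 CPM and Qk from 233 to 26.6 CPM, each in its own knockdown. The summed level of 9 smooth muscle markers lay at 2120 to 2185 CPM in the control libraries, at 1084 to 1193 upon RBPMS knockdown, 837 to 936 upon RBFOX2 knockdown and 1458 to 1546 upon QKI knockdown. Not all of these markers followed the sum. Upon RBPMS, RBFOX2 and QKI knockdown 6, 5 and 5 of the 9 were lower, Acta2 among them each time. In the same order 3, 2 and 3 were higher, with Des, Myh11 and Myocd upon both RBPMS and QKI knockdown. Of all tested genes, 30.4%, 30.1% and 32.9% were higher and 29.0%, 30.1% and 34.0% lower. The shares of higher smooth muscle markers (33.3%, 22.2% and 33.3%) were thus near or below those of all genes. Endothelial and leukocyte marker lists summed to at most 10.8 and 5.93 CPM, epithelial markers to between 30.0 and 74.0 CPM, and fibroblast markers to 7340 to 8476 CPM in the control and 13946 to 17078 CPM in the knockdowns. The fibroblast sum followed Col1a1, since 3 of the 5 markers were lower upon RBPMS knockdown and 4 upon QKI knockdown, Lum and Dcn among them, and 2 were higher and 2 lower upon RBFOX2 knockdown. The part of these differences in the results was not tested, and in bulk RNA fewer cells of a type and less RNA per cell cannot be told apart.

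One library stood apart for these genes. RBPMS knockdown replicate 2 was the highest of its group for 94 of the 95 nuclear members that could be tested, whereas it was the highest for 40.9% of all tested genes. Relative to the control mean, the median nuclear member lay at a log2 value of −0.10, 0.16 and −0.06 in the 3 RBPMS knockdown libraries, −0.15, −0.13 and −0.16 in the RBFOX2 libraries and 0.13, 0.11 and 0.02 in the QKI libraries. For the RBPMS knockdown, the main counts by genome, by complex and by list of genes around the pathway are therefore given with and without replicate 2. Values of single genes use all 3 libraries unless stated. No cause of the levels of replicate 2 was tested.

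Of the 101 nuclear members, 95 were tested, among them the pseudogene Ndufa13-ps1. The other 6 were the tissue-restricted subunits Cox6b2, Cox7b2, Cox8b and Cox8c, with at most 14 counts in any library, and the pseudogenes Cox6c-ps1 and Ndufb4l1-ps1 at 0 counts in all 12. All 13 mitochondrial genes were tested, and the gene with the fewest counts, ATP8, lay between 94.7 and 117 CPM. A gene is called higher or lower where its adjusted p was under 0.05 across all tested genes, and the study's own rule asks in addition for a log2 fold change beyond 1 in either direction. The test called many small differences, so shares of all tested genes are given for comparison.

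QKI knockdown raised more nuclear members than it lowered, RBFOX2 knockdown did the reverse, and both left most changes well within 2-fold. Upon QKI knockdown 40 of 95 nuclear members (42.1%) were higher against 32.9% of all tested genes, and 13 (13.7%) were lower against 34.0%. Upon RBFOX2 knockdown 14 (14.7%) were higher against 30.1%, and 47 (49.5%) were lower against 30.1%. Upon RBPMS knockdown 29 (30.5%) were higher against 30.4%, and 19 (20.0%) were lower against 29.0%. In either direction, 59.4%, 60.3% and 66.9% of all tested genes were called upon RBPMS, RBFOX2 and QKI knockdown. The median log2 fold change of the nuclear members was 0.07 (QKI), −0.15 (RBFOX2) and 0.01 (RBPMS), where the median of all tested genes was 0.01 in each comparison. Well-measured genes are called more often, so the counts were repeated for those averaging 5 CPM or more over the 12 libraries: 39 of 90 nuclear members were higher and 11 lower upon QKI knockdown (37.4% and 42.9% of such genes), 14 higher and 46 lower upon RBFOX2 knockdown (34.9% and 39.9%), and 27 higher and 18 lower upon RBPMS knockdown (39.8% and 35.8%). Counted by libraries alone, 43 of 95 nuclear members had all QKI libraries above all control libraries (35.9% of all tested genes) and 20 had them all below (36.3%). For RBFOX2 knockdown these counts were 18 (34.8%) and 58 (33.8%), and for RBPMS knockdown 28 (31.2%) and 13 (30.5%).

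Changes of the nuclear members were small beside those of other genes. Their median absolute log2 fold change was 0.13 upon RBPMS knockdown, 0.20 upon RBFOX2 knockdown and 0.17 upon QKI knockdown, where that of all tested genes was 0.33, 0.33 and 0.42. The inner quartiles of the nuclear members lay between −0.10 and 0.15, between −0.29 and 0.01, and between −0.07 and 0.28 in the same order. Genes with more counts vary less, and the sets differ in level, so these values are a description.

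The RBPMS count turned on the library that stood apart. Without replicate 2, 19 of 96 tested nuclear members were higher and 45 were lower, against 29.0% and 28.6% of all tested genes, and the median log2 fold change was −0.07. The direction of the nuclear set upon RBPMS knockdown is thus set by 1 of 3 libraries. Few members passed the study's rule: 5 upon RBPMS knockdown (9.66% of all tested genes), 0 upon RBFOX2 knockdown (11.7%) and 4 upon QKI knockdown (17.5%). Upon RBFOX2 knockdown 61 nuclear members passed adjusted p alone. Uqcr10, Cox6a2 and Cox4i2 were among the 5 upon RBPMS knockdown. Without replicate 2 their log2 fold changes were 0.90, 0.86 and 0.68, short of the study's rule.

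**Figure D1:**
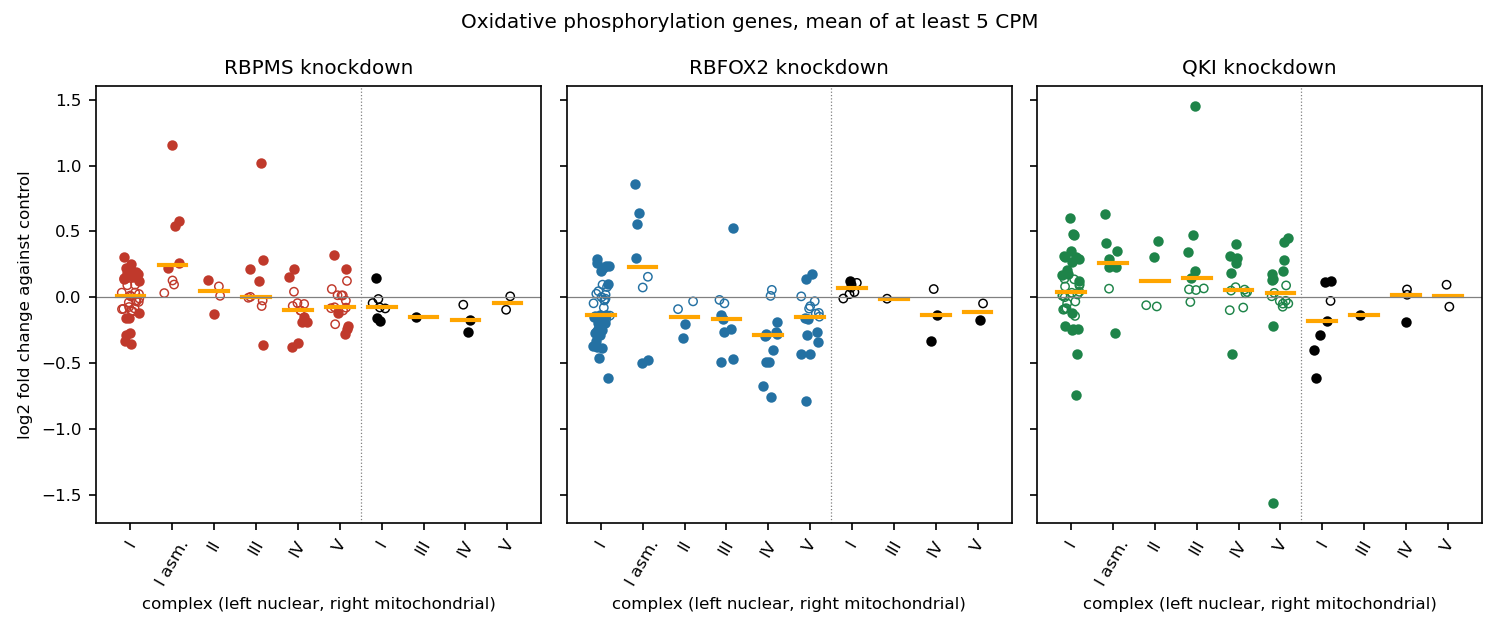
Log2 fold change against control (vertical axis) of each oxidative phosphorylation gene averaging 5 CPM or more except Cycs, in 1 panel per knockdown, by respiratory complex (horizontal axis, nuclear genes left of the dotted line, mitochondrial genes in black right of it, "I asm." for the complex I assembly factors). Filled points passed adjusted p under 0.05, open points did not, and orange lines are medians. Most points lie near 0, with Atp5f1c at −1.56 and Uqcr10 at 1.45 upon QKI knockdown far outside the rest of their complexes. The nuclear complex IV genes are shifted down upon RBFOX2 knockdown.

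Complex I was tested through 39 nuclear members, which include the pseudogene Ndufa13-ps1 (22.2 to 29.3 CPM) and the Ndufa10-like gene Ndufa10l1. Upon QKI knockdown 13 were higher and 7 lower (33.3% and 17.9%, against 32.9% and 34.0% of all tested genes), upon RBFOX2 knockdown 7 higher and 17 lower (17.9% and 43.6%, against 30.1% each way), and upon RBPMS knockdown 12 higher and 7 lower (30.8% and 17.9%, against 30.4% and 29.0%). The shares of higher members upon QKI and RBPMS knockdown were thus at the background, and without RBPMS replicate 2 the RBPMS counts were 7 and 18. Ndufs1, the large iron-sulfur subunit of the matrix arm, rose in all 3 comparisons. Its control libraries lay at 119.5, 124 and 124 CPM, and the QKI knockdown libraries at 187, 189 and 183 CPM. On the log2 scale this was a rise of 0.60 with an SE of 0.033 (adjusted p = 3.19e-11). The rise was 0.30 ± 0.033 (value ± SE, here and below) upon RBPMS knockdown (adjusted p = 4.31e-07) and 0.26 ± 0.033 upon RBFOX2 knockdown (adjusted p = 3.08e-06), and none of the 3 groups overlapped the control. Ndufv1, which carries the NADH binding site, rose by less, with log2 fold changes of 0.17, 0.10 and 0.17 upon RBPMS, RBFOX2 and QKI knockdown.

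Some accessory subunits of complex I moved the other way. Ndufa12 lay at 58.0, 56.8 and 57.7 CPM in the control and at 34.5, 33.2 and 35.5 CPM upon QKI knockdown (log2 fold change −0.74 ± 0.072, adjusted p = 6.78e-08). It was at 56.7, 56.4 and 59.5 CPM upon RBFOX2 knockdown and at 61.3, 76.6 and 58.1 CPM upon RBPMS knockdown, so the low levels were those of the QKI libraries. Ndufs4, an accessory subunit whose loss causes complex I deficiency, also fell upon QKI knockdown, by 0.43 on the log2 scale (adjusted p = 6.53e-07), while Ndufa7 and the acyl carrier protein Ndufab1 rose by 0.48 and 0.47. Ndufa1, a small membrane-arm subunit, was lower in every knockdown library than in any control library: from 47.1, 49.1 and 47.8 CPM in the control its log2 fold change was −0.36 upon RBPMS knockdown, −0.61 upon RBFOX2 knockdown and −0.24 upon QKI knockdown (adjusted p = 0.000108, 2.28e-07 and 0.00247). Ndufb2 did likewise, with −0.33, −0.38 and −0.22.

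The Ndufaf assembly factors, which chaperone complex I intermediates and are absent from the mature enzyme, were more often higher than lower in each knockdown. Of 8 tested, 5 were higher and 0 lower upon RBPMS knockdown, 4 higher and 2 lower upon RBFOX2 knockdown, and 6 higher and 1 lower upon QKI knockdown, with median log2 fold changes of 0.24, 0.23 and 0.26. In shares these were 62.5% and 0%, 50% and 25%, and 75% and 12.5%, beside the shares of all tested genes given above, and without RBPMS replicate 2 the RBPMS counts were 4 and 0. Ndufaf1 was at 9.53, 8.84 and 8.48 CPM in the control, at 19.3, 20.7 and 19.7 CPM upon RBPMS knockdown, at 16.1, 16.5 and 16.2 CPM upon RBFOX2 knockdown and at 14.7, 13.3 and 13.5 CPM upon QKI knockdown. No knockdown library overlapped the control, and the RBPMS libraries were the highest. The log2 fold changes were 1.16 ± 0.056, 0.86 ± 0.056 and 0.63 ± 0.056 (adjusted p = 1.63e-11, 5.24e-10 and 2.27e-08). Ndufaf3 (0.54, 0.55 and 0.29), Ndufaf4 (0.58, 0.30 and 0.23) and Ndufaf7 (0.26, 0.64 and 0.35), a methyltransferase acting on a complex I subunit, also rose upon RBPMS, RBFOX2 and QKI knockdown in that order. Ndufaf2 went the other way upon RBFOX2 knockdown, from 6.81, 6.62 and 6.37 CPM to 4.65, 4.43 and 4.92 CPM (−0.50, adjusted p = 9.74e-06), and upon QKI knockdown (−0.27, adjusted p = 0.00286).

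Complex II and complex III are small sets. Of the 4 complex II subunits, 1 was higher and 1 lower upon RBPMS knockdown, 0 higher and 2 lower upon RBFOX2 knockdown, and 2 higher and 0 lower upon QKI knockdown. Sdha, the flavoprotein that oxidises succinate, was among those lower upon RBFOX2 knockdown (148, 148 and 149 CPM against 169, 171 and 172 CPM, log2 fold change −0.20, adjusted p = 3.35e-05). Sdhb, its iron-sulfur partner, was at 91.9, 95.0 and 87.6 CPM in the control and passed in no comparison (adjusted p = 0.172 upon RBPMS, 0.133 upon RBFOX2 and 0.302 upon QKI knockdown). Of the 9 tested complex III members, 4 were higher and 1 lower upon RBPMS knockdown, 1 higher and 6 lower upon RBFOX2 knockdown, and 5 higher and 0 lower upon QKI knockdown. The complex III shares were 44.4% and 11.1%, 11.1% and 66.7%, and 55.6% and 0% (all tested genes 30.4% and 29.0%, 30.1% and 30.1%, and 32.9% and 34.0%). Without RBPMS replicate 2 the RBPMS counts were 0 and 1 in complex II and 3 and 4 in complex III.

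Uqcr10, a small complex III subunit next to cytochrome c1, rose in every knockdown. Its control libraries were at 28.1, 28.7 and 30.2 CPM, those of the RBFOX2 knockdown at 43.3, 40.3 and 41.6 CPM, those of the RBPMS knockdown at 54.8, 67.9 and 53.4 CPM and those of the QKI knockdown at 80.2, 80.6 and 77.6 CPM. The 4 groups did not overlap. Uqcr10 therefore stood at 144%, 202% and 274% of control, with log2 fold changes of 0.52 ± 0.068, 1.02 ± 0.068 and 1.45 ± 0.068 (adjusted p = 3.53e-06, 1.03e-09 and 4.18e-12). The other members of complex III differed among themselves. Uqcrq and Uqcr11, named after their values were seen, were also higher upon QKI knockdown, at 138, 136 and 129 CPM against 93.6, 99.3 and 98.1 CPM for Uqcrq (adjusted p = 1.12e-06) and at 76.5, 75.3 and 70.2 CPM against 58.3, 59.1 and 57.6 CPM for Uqcr11 (adjusted p = 7.77e-05), and both were higher upon RBPMS knockdown too (adjusted p = 0.000344 and 0.00563). Uqcrfs1, the Rieske iron-sulfur protein, lay at 122, 118 and 116 CPM upon RBFOX2 knockdown against 166, 167 and 166 CPM in the control (−0.49 ± 0.047, adjusted p = 8.9e-08), and Cyc1, cytochrome c1 itself, was at 89.0% of control there (−0.17, adjusted p = 0.00281). Uqcrh, the hinge protein, was lower upon RBPMS knockdown by 0.36 on the log2 scale (adjusted p = 8.64e-05).

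Cycs encodes cytochrome c, which carries electrons from complex III to complex IV and is released when cells die by apoptosis. It lay at 41.1, 40.3 and 39.9 CPM in the control and at 57.4, 65.1 and 60.1 CPM upon RBPMS knockdown (log2 fold change 0.59 ± 0.045, adjusted p = 5.15e-09). The RBFOX2 libraries, at 39.0, 40.7 and 41.4 CPM, overlapped the control (adjusted p = 0.973), and the QKI libraries were at 44.5, 45.3 and 42.6 CPM.

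Most nuclear mRNAs of complex IV were lower upon RBFOX2 knockdown. Of the 16 tested nuclear members of this complex, 0 were higher and 12 lower there. The counts were 6 higher and 3 lower upon QKI knockdown and 4 higher and 6 lower upon RBPMS knockdown. In the same order, the median log2 fold changes were −0.28, 0.05 and −0.08. In shares this was 0% and 75% upon RBFOX2 knockdown (30.1% of all tested genes each way), 37.5% and 18.8% upon QKI knockdown (32.9% and 34.0%) and 25% and 37.5% upon RBPMS knockdown (30.4% and 29.0%), and without RBPMS replicate 2 the RBPMS counts were 2 and 11 of 17. Cox8a, the smallest subunit in its widely expressed form, was at 82.5, 82.3 and 82.7 CPM in the control. It fell to 50.1, 49.5 and 46.6 CPM upon RBFOX2 knockdown (−0.76 ± 0.056, adjusted p = 2.72e-09) and to 59.4, 70.3 and 60.8 CPM upon RBPMS knockdown (−0.38, adjusted p = 1.54e-05), and rose to 105, 104 and 94.8 CPM upon QKI knockdown (0.29, adjusted p = 0.00014). The RBFOX2 and QKI libraries thus lay on opposite sides of the control without overlap, and the difference between them was −1.05 on the log2 scale (adjusted p = 2.26e-11).

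Several complex IV subunits come in forms specific to a tissue or condition. The widely expressed forms were lower upon RBFOX2 knockdown: Cox4i1, which links the catalytic core to ATP levels, at 406, 409 and 398 CPM against 486, 496 and 490 CPM (−0.28, adjusted p = 0.000417), and Cox6a1 at 174, 179 and 176 CPM against 252, 249 and 244 CPM (−0.49, adjusted p = 1.67e-06). Ndufa4, now counted as a complex IV subunit in spite of its name, was at 164, 160 and 161 CPM in the control and changed by −0.35 upon RBPMS knockdown (adjusted p = 2.72e-05), −0.50 upon RBFOX2 knockdown (adjusted p = 4.75e-07) and 0.18 upon QKI knockdown (adjusted p = 0.00634). Its hypoxia-inducible counterpart Ndufa4l2 was at 3.09, 2.48 and 3.53 CPM in the control, and lower in all 3 knockdowns (−1.39, −0.78 and −0.73, adjusted p = 1.88e-05, 0.00241 and 0.0035), although the QKI libraries, at 1.76, 2.51 and 1.22 CPM, overlapped the control.

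The muscle form Cox6a2 was near the limit of the test, at 0.621, 0.671 and 0.397 CPM in the control, and rose to 1.78, 1.58 and 1.96 CPM upon QKI knockdown (1.65, adjusted p = 6.22e-06) and to 0.846, 1.75 and 1.20 CPM upon RBPMS knockdown (1.18, adjusted p = 0.000343). Cox4i2, the lung and hypoxia form, had 32, 32 and 13 counts in the control and 7, 0 and 4 counts upon QKI knockdown (−2.68, adjusted p = 0.0012). Its call upon RBPMS knockdown (26, 77 and 40 counts, 1.06, adjusted p = 0.0497) was lost in 8 alternatives, among them leaving out RBPMS replicate 2, and its libraries overlapped the control. Cox7a2l, which has a role in joining complexes III and IV into supercomplexes, was at 110.2, 109 and 108 CPM in the control, at 67.1, 69.9 and 68.0 CPM upon RBFOX2 knockdown (−0.67 ± 0.045, adjusted p = 8.58e-10) and at 83.2, 79.7 and 79.4 CPM upon QKI knockdown (−0.43, adjusted p = 1.74e-07). Cox7a2 was at 6.16, 5.81 and 5.76 CPM in the control. How reads shared with close copies were counted is not stated, so levels of the Cox7a2 and Ndufa10 families and of other members with near-identical copies are uncertain. Cox7a1 was not analysed here, as the count table held no row under that symbol.

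ATP synthase held the largest single fall among the tested nuclear members with a mean of at least 5 CPM. Atp5f1c encodes the gamma subunit, the central shaft whose rotation drives ATP synthesis. It lay at 115, 111 and 115 CPM in the control, 113, 115 and 114 CPM upon RBFOX2 knockdown and 111, 121 and 112 CPM upon RBPMS knockdown, but at 41.0, 38.2 and 35.9 CPM upon QKI knockdown. The QKI libraries stood far below all the others, at 33.8% of control (log2 fold change −1.56 ± 0.046, adjusted p = 8.05e-15). The RBPMS and RBFOX2 libraries overlapped the control (adjusted p = 0.812 and 0.906), and both exceeded the QKI libraries when compared directly, by 1.58 (adjusted p = 1.33e-14) and 1.57 (adjusted p = 8.98e-15) on the log2 scale.

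The rest of ATP synthase did not follow Atp5f1c. Of 18 tested complex V members, 7 were higher and 2 lower upon QKI knockdown, 2 higher and 8 lower upon RBFOX2 knockdown, and 2 higher and 4 lower upon RBPMS knockdown. The shares were 38.9% and 11.1% (all tested genes 32.9% and 34.0%), 11.1% and 44.4% (30.1% each way), and 11.1% and 22.2% (30.4% and 29.0%), and without RBPMS replicate 2 the RBPMS counts were 2 and 11. The alpha subunit gene Atp5f1a, at 676, 662 and 686 CPM in the control, was at 660, 661 and 637 CPM upon QKI knockdown (adjusted p = 0.336) and lower upon RBPMS knockdown (550, 621 and 544 CPM, −0.24, adjusted p = 0.000116). The beta subunit gene Atp5f1b, which carries the catalytic sites, was at 1521, 1522 and 1520.2 CPM in the control, at 1445, 1461 and 1447 CPM upon RBFOX2 knockdown (adjusted p = 0.122) and at 1454, 1462 and 1426 CPM upon QKI knockdown (adjusted p = 0.0945). Atp5if1 encodes the inhibitor that stops the enzyme from hydrolysing ATP when the membrane potential drops. From 161, 157 and 149.7 CPM in the control it fell to 91.8, 90.7 and 88.4 CPM upon RBFOX2 knockdown (−0.79 ± 0.066, adjusted p = 1.67e-08). It was at 139.8, 135 and 128 CPM upon QKI knockdown (−0.22, adjusted p = 0.00771). That call was lost with library totals alone and by the authors' normalised values. The RBPMS libraries of Atp5if1 (121, 154 and 126 CPM, −0.22, adjusted p = 0.0078) overlapped the control.

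**Figure D2:**
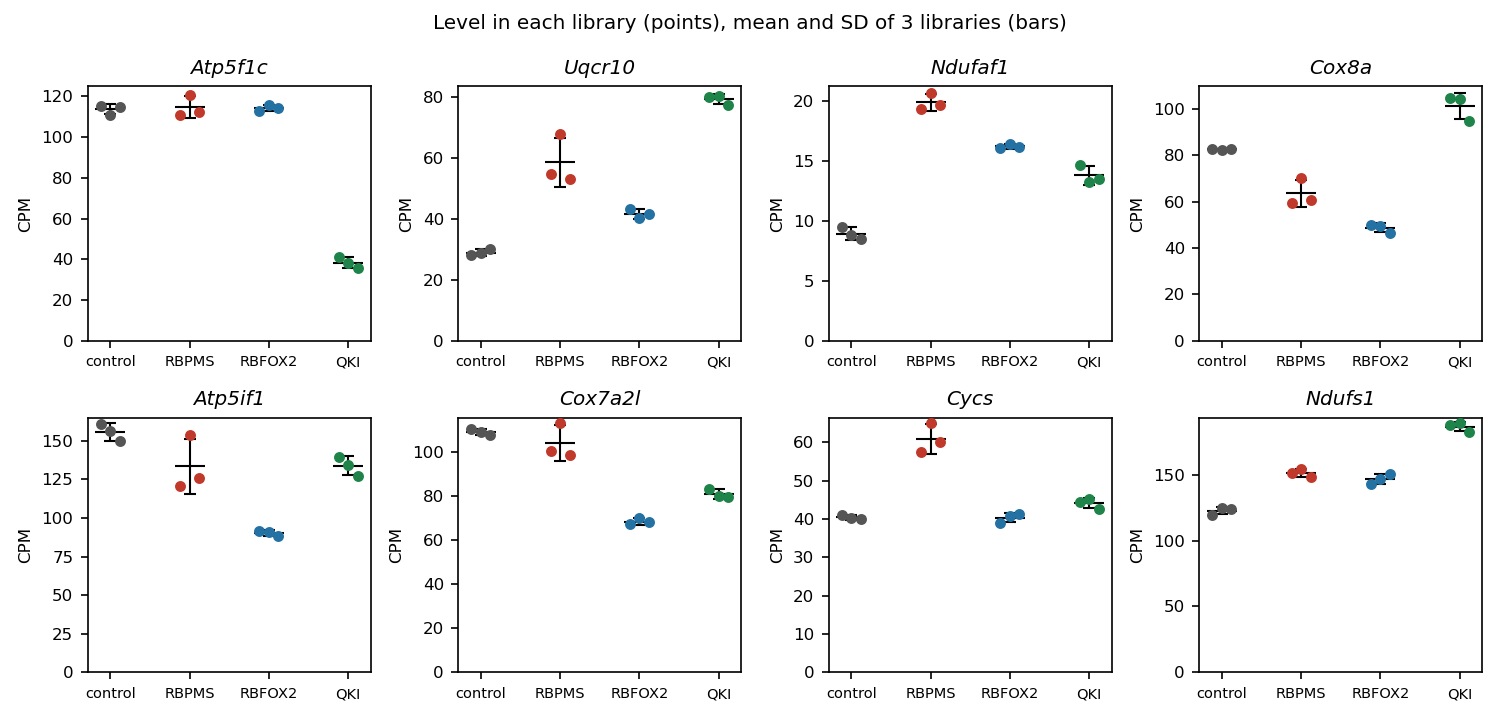
Level in CPM (vertical axis, from 0) of 8 nuclear oxidative phosphorylation genes in each of the 3 libraries of the control and of the 3 knockdowns (horizontal axis). Points are libraries and bars the mean with its SD. Atp5f1c is low in the QKI libraries alone, at 35.9 to 41.0 CPM, Uqcr10 and Ndufaf1 are above the control in every knockdown library, and RBPMS replicate 2 is the highest of its group in all 8 panels.

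As sequence context, the bases before the annotated start of 4 nuclear genes named above were read from the RefSeq windows of rat assembly GRCr8. These were the gamma subunit gene Atp5f1c, the complex III subunit gene Uqcr10, the assembly factor gene Ndufaf1 and Cox8a. GRCr8 is a later assembly than the one the counts were made on, and no coordinate of the counts was used. Each line gives the 150 bases that end at the start site, 5′ to 3′ on the gene's strand, and capitals mark an exact match to 1 of 3 motifs of factors known for genes of this pathway: GCGCA, any base and GCGC in a row for NRF1, CCGGAAGT for ETS factors such as GABP, and AAGATGGC for YY1, each searched on both strands.
Atp5f1c, chr17:73333535-73333684, plus strand: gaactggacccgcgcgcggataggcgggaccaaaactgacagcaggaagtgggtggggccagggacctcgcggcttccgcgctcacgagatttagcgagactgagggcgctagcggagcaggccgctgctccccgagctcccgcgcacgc
Uqcr10, chr14:83791915-83792064, minus strand: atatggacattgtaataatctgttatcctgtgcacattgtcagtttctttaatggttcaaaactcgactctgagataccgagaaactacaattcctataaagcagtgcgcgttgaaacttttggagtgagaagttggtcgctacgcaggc
Ndufaf1, chr3:127104021-127104170, minus strand: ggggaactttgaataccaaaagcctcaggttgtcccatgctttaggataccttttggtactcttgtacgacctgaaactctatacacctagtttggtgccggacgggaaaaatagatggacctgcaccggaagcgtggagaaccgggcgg
Cox8a, chr1:213833624-213833773, minus strand: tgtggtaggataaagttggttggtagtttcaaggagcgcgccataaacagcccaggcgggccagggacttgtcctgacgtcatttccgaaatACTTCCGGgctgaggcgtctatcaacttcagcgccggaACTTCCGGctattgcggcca

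Of these, Cox8a holds 2 matches to the ETS motif and the other 3 hold none of these letters in the window shown. Over the 250 bases before the start, 22 of the 85 nuclear members with a window (25.9%) held at least 1 of the motifs, against 8.56% of 27457 windows of all genes. The NRF1 letters were in 13 (15.3%, against 4.17%), the ETS letters in 8 (9.41%, against 3.29%) and the YY1 letters in 2 (2.35%, against 1.69%). These are descriptions of letters in the reference, not of binding in these cells.

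The 13 mitochondrial mRNAs changed less than the nuclear extremes and did not move as a block. Upon RBPMS knockdown 1 was higher (ND3) and 5 were lower (COX1, COX3, ND5, ND6 and CYTB), upon RBFOX2 knockdown 1 was higher (ND5) and 3 lower (COX1, COX2 and ATP8), and upon QKI knockdown 2 were higher (ND1 and ND2) and 6 lower (COX3, ND4L, ND4, ND5, ND6 and CYTB). In shares these were 7.69% and 38.5% (all tested genes 30.4% and 29.0%), 7.69% and 23.1% (30.1% each way), and 15.4% and 46.2% (32.9% and 34.0%). The median log2 fold changes were −0.09, 0.02 and −0.07. Without RBPMS replicate 2, 0 were higher and 9 lower upon RBPMS knockdown, with a median of −0.12. Libraries were poly(A)-selected, so a mitochondrial value covers the polyadenylated transcripts.

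COX1, the catalytic subunit of complex IV that reduces oxygen, took 43.6 ± 0.135% (SD, n = 3) of the mitochondrial counts in the control. It lay at 14263, 13683 and 14024 CPM in the control, 10993, 11968 and 11948 CPM upon RBPMS knockdown, 10915, 11349 and 11120 CPM upon RBFOX2 knockdown and 14533, 14303 and 14890 CPM upon QKI knockdown. The RBPMS and RBFOX2 libraries were all below the control, with log2 fold changes of −0.27 ± 0.035 (adjusted p = 4.53e-06) and −0.33 ± 0.035 (adjusted p = 3.26e-07), and the QKI value of 0.06 ± 0.035 did not pass (adjusted p = 0.149). COX2 and ATP8, which follow COX1 in the genome, had log2 fold changes of −0.13 and −0.18 upon RBFOX2 knockdown (adjusted p = 0.0126 and 0.0111). Both calls were lost with library totals alone and by the authors' normalised values, and that of ATP8 also without control replicate 1.

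Values of the mitochondrial genes upon QKI knockdown are given here by place in the genome, taken from their order in the count table. A relation to place was not tested. ND1 and ND2, at its start, had log2 fold changes of 0.12 and 0.11 (adjusted p = 0.00959 and 0.0102). COX1, COX2, ATP8 and ATP6 lay between −0.07 and 0.09 and none passed. COX3 was at −0.19 (adjusted p = 0.000698), ND3 at −0.03 (adjusted p = 0.692), ND4L at −0.18 (adjusted p = 0.00167) and ND4 at −0.29 (adjusted p = 8.01e-07). ND5 was at −0.40 ± 0.039 (adjusted p = 8.31e-08), with 861, 857 and 912 CPM against 1141, 1159 and 1168 CPM in the control. CYTB, which follows ND5 and ND6, was at −0.14 (adjusted p = 0.00486), so the order was not a steady decline. With library totals alone, ND4L was at −0.093 and CYTB at −0.050, and both calls were lost. By the authors' normalised values COX3 and CYTB were at 0.026 and were not called.

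ND6 is encoded on the strand opposite to its neighbours ND5 and CYTB. It had the largest fall of the 13 upon QKI knockdown, from 265, 260.3 and 262 CPM to 168, 166 and 182 CPM (−0.61 ± 0.062, adjusted p = 1.26e-07). The kit keeps strand, but whether counting used it is not stated, so reads of ND6 and antisense reads over it cannot be told apart. ATP8 overlaps ATP6 and ND4L overlaps ND4, and their counts share that doubt. Upon RBPMS knockdown ND6 was at 207, 261 and 225 CPM (−0.18, adjusted p = 0.0167), overlapping the control, and the calls of ND6 and of ND3 (0.15, adjusted p = 0.038) were lost when single libraries were left out.

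**Figure D3:**
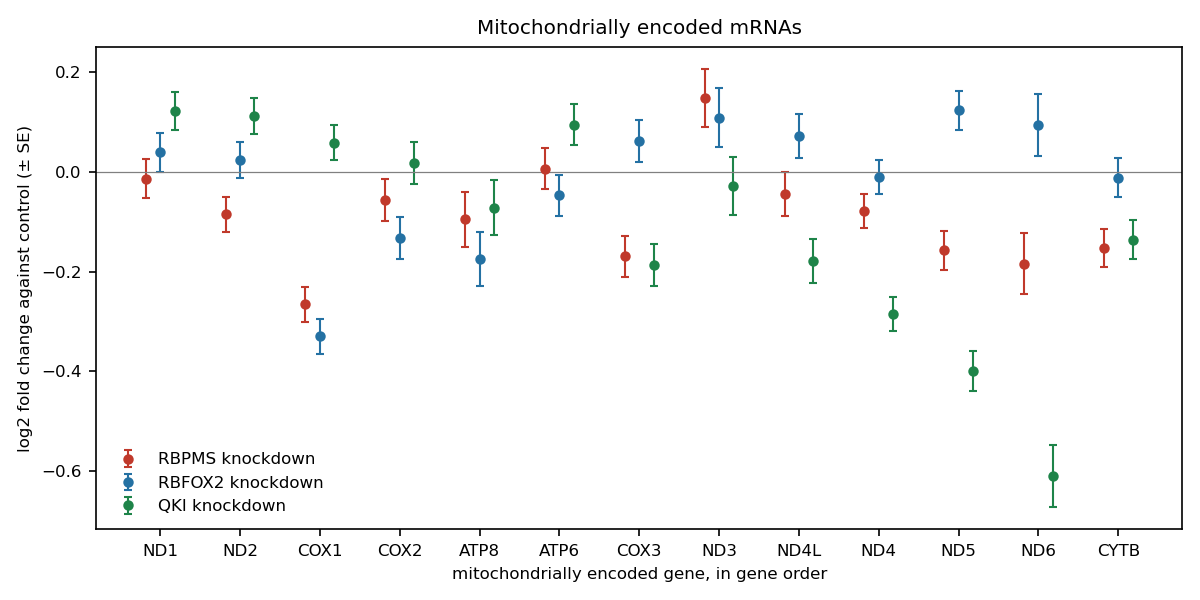
Log2 fold change against control with its SE (vertical axis) of the 13 mitochondrially encoded mRNAs in gene order (horizontal axis), with 1 point per knockdown. QKI knockdown values are 0.12 at ND1, −0.03 at ND3, −0.40 at ND5, −0.61 at ND6 and −0.14 at CYTB. COX1 is at −0.27 upon RBPMS knockdown and −0.33 upon RBFOX2 knockdown.

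RBFOX2 and QKI knockdown were also compared directly for the mitochondrial genes. Here 7 of 13 were higher in the RBFOX2 libraries (35.0% of all tested genes) and 4 were lower (33.5%), and with library totals alone the counts were 6 and 6. ND5 differed by 0.52 (adjusted p = 2.4e-09) and COX1 by −0.39 on the log2 scale. Ratios between mitochondrial genes do not depend on how libraries are scaled. The ratio of COX1 to ND5 counts was 12.1 ± 0.354 (SD, n = 3) in the control, 11.2 ± 0.520 upon RBPMS knockdown, 8.84 ± 0.265 upon RBFOX2 knockdown and 16.6 ± 0.283 upon QKI knockdown. The RBFOX2 libraries (8.54 to 9.05) lay below and the QKI libraries (16.3 to 16.9) above the control range of 11.8 to 12.5. The ratio of ND1 to ND5 was 1.21 ± 0.033, 1.34 ± 0.072, 1.14 ± 0.033 and 1.74 ± 0.064 in the same order. Both ratios were chosen after the values of these genes had been seen, and they are given without a test.

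Nuclear and mitochondrial members were compared by their summed counts. As a share of all counts, the 101 nuclear members took 0.931 ± 0.0106% in the control, 0.883 ± 0.0743% upon RBPMS knockdown, 0.867 ± 0.0045% upon RBFOX2 knockdown and 1.03 ± 0.0239% upon QKI knockdown (SD, n = 3). The 13 mitochondrial genes took 3.15 ± 0.0712%, 2.73 ± 0.133%, 2.98 ± 0.0508% and 3.32 ± 0.0633%. All RBPMS and RBFOX2 libraries were below, and all QKI libraries above, the control libraries in the mitochondrial share. For the nuclear share this held of the RBFOX2 and QKI libraries, while RBPMS replicate 2, at 0.969%, lay above the control and the other two at 0.836% and 0.844% below.

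These shares depend on scaling. On effective library size the mitochondrial sum was 32072 ± 588 CPM in the control and 31796 ± 498 CPM upon QKI knockdown, with overlapping libraries, against 28650 ± 1504 CPM upon RBPMS knockdown and 29200 ± 532 CPM upon RBFOX2 knockdown. The ratio of mitochondrial to nuclear counts, which is free of scaling, was 3.39 ± 0.056 in the control, 3.10 ± 0.209 upon RBPMS knockdown, 3.44 ± 0.053 upon RBFOX2 knockdown and 3.23 ± 0.114 upon QKI knockdown. Its libraries ran from 3.32 to 3.42 in the control, from 3.38 to 3.47 upon RBFOX2 knockdown and from 3.14 to 3.36 upon QKI knockdown, both overlapping the control. The RBPMS libraries were all below the control, at 3.083, 2.905 and 3.321, the last of them only just under the lowest control library at 3.323. With 3 libraries against 3 an exact permutation test cannot give a two-sided p below 0.1, so these sums are given as values.

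**Figure D4:**
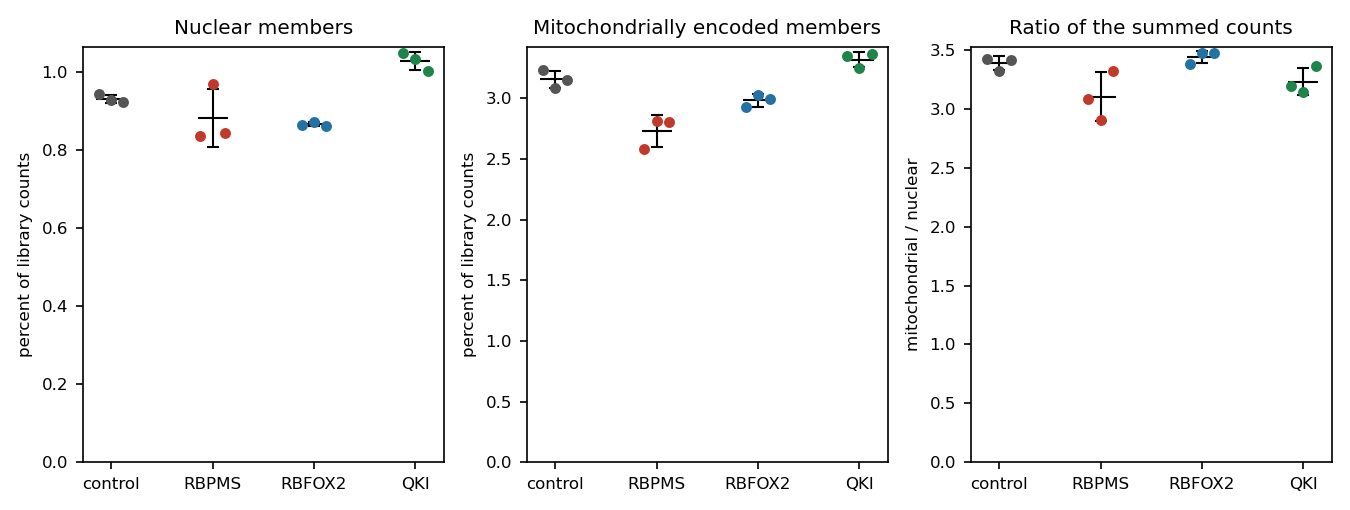
Share of each library's counts taken by nuclear members (left) and by mitochondrially encoded members (middle), in percent, and the ratio of mitochondrial to nuclear counts (right), for the 3 libraries of each group. Points are libraries and bars the mean with its SD. QKI libraries are the highest in both shares, at 1.00% to 1.05% and 3.25% to 3.36%, with no overlap with the control, and the ratios of the RBFOX2 and QKI groups overlap the control.

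The comparisons above share the control libraries, so the knockdowns were also compared with each other. Of the 95 nuclear members, 60 were lower in the RBFOX2 than in the QKI libraries (33.5% of all tested genes) and 12 were higher (35.0%), with a median log2 difference of −0.26. With library totals alone these counts were 64 and 11. In RBPMS against RBFOX2 libraries 49 were higher (28.8%) and 3 lower (27.9%), and in RBPMS against QKI libraries 21 were higher (32.0%) and 42 lower (29.0%). The RBPMS comparisons were less steady. With library totals alone, 23 were higher and 10 lower against RBFOX2, and 13 higher and 62 lower against QKI. Without RBPMS replicate 2 the counts were 40 and 9 of 96 against RBFOX2 and 17 and 62 against QKI.

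Genes around the pathway were taken from 4 lists, whose counts stand beside 30.4% higher and 29.0% lower of all tested genes upon RBPMS knockdown, 30.1% each way upon RBFOX2 knockdown, and 32.9% and 34.0% upon QKI knockdown. Values for each gene below are log2 fold changes upon RBPMS, RBFOX2 and QKI knockdown in that order. In the tricarboxylic acid cycle, which feeds electrons to complexes I and II, 4 of 18 genes were higher and 5 lower upon RBPMS knockdown (22.2% and 27.8%), 7 higher and 8 lower upon RBFOX2 knockdown (38.9% and 44.4%), and 10 higher and 4 lower upon QKI knockdown (55.6% and 22.2%). Idh3a, the catalytic subunit of NAD-dependent isocitrate dehydrogenase, was at 0.69, 0.56 and 1.00 (adjusted p = 1.22e-11, 1.32e-10 and 3.07e-14). Dlat, the acetyltransferase core of pyruvate dehydrogenase, was at 0.74, 0.78 and 0.99 (adjusted p = 1.89e-11, 6.65e-12 and 1.58e-13). Pdha1, a catalytic subunit of the same complex, went down, at −0.17, −0.41 and −1.15 (adjusted p = 0.000425, 2.64e-08 and 2.16e-14). Suclg2, of succinyl-CoA ligase, was at −0.41, 0.13 and 0.12, and Idh2, the NADP-dependent mitochondrial isocitrate dehydrogenase, at −0.18, −0.42 and 0.45, all of them past the test, although the 2 small rises of Suclg2 were each lost with some single libraries left out.

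Among 16 tested genes of mitochondrial transcription and biogenesis, 10 were higher and 3 lower upon RBPMS knockdown (62.5% and 18.8%), 5 higher and 7 lower upon RBFOX2 knockdown (31.2% and 43.8%), and 8 higher and 6 lower upon QKI knockdown (50% and 37.5%). Esrra, an orphan nuclear receptor that activates respiratory chain genes, was lower in each, at −0.67, −0.38 and −0.25 (adjusted p = 3.49e-11, 2.95e-08 and 5.18e-06). Twnk, the mitochondrial DNA helicase, was higher in each, at 0.57, 0.29 and 0.83 (adjusted p = 1.12e-08, 3.48e-05 and 3.93e-11), as was Tefm, a mitochondrial transcription elongation factor, at 0.66, 0.59 and 0.32. Polg, the mitochondrial DNA polymerase, was lower, at −0.20, −0.59 and −0.25 (adjusted p = 0.000202, 5.9e-10 and 2.07e-05), while its accessory subunit gene Polg2 was at 0.68, −0.49 and 0.54.

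Of 18 genes of mitochondrial RNA processing and stability, 11 were higher and 2 lower upon RBPMS knockdown (61.1% and 11.1%), 6 higher and 3 lower upon RBFOX2 knockdown (33.3% and 16.7%), and 9 higher and 6 lower upon QKI knockdown (50% and 33.3%). Mtpap, the mitochondrial poly(A) polymerase, was at 0.56, 0.38 and 0.47 (adjusted p = 2.69e-09, 2.59e-07 and 1.23e-08), and Pnpt1, polynucleotide phosphorylase, which degrades mitochondrial RNA, at 0.35, 0.27 and 0.60 (adjusted p = 1.35e-06, 2.23e-05 and 9.27e-10). Fastkd1, of a family that controls mitochondrial mRNA levels, was at −0.58 upon QKI knockdown (adjusted p = 2.71e-09) and did not pass upon RBPMS or RBFOX2 knockdown (adjusted p = 0.225 and 0.669). Hsd17b10, a component of the mitochondrial RNase P, was at −0.35 upon RBPMS and −0.19 upon RBFOX2 knockdown, and the exoribonuclease gene Rexo2 at −0.25 upon RBFOX2 and −0.28 upon QKI knockdown. The part of these genes in the mitochondrial mRNA levels was not tested.

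Assembly factors outside the Nduf family were the largest of these lists, with 39 tested. Upon RBPMS knockdown 21 were higher and 5 lower (53.8% and 12.8%), upon RBFOX2 knockdown 14 higher and 14 lower (35.9% each way), and upon QKI knockdown 24 higher and 6 lower (61.5% and 15.4%). Cox15, which makes the haem of complex IV, was at 1.12, 1.41 and 1.08 (adjusted p = 2.43e-14, 6.64e-16 and 8.96e-15), although 12 of 16 complex IV members were lower upon RBFOX2 knockdown. Atpaf1, a chaperone of the ATP synthase head, was at 1.40, 1.31 and 0.85 (adjusted p = 1.11e-13, 1.23e-13 and 2.16e-11). Lyrm7, an assembly factor for the Rieske protein of complex III, was at 0.90, 1.15 and 1.17 (adjusted p = 2.44e-08, 6.78e-10 and 3.32e-10). The complex II factor Sdhaf1 fell by 1.10 upon RBFOX2 knockdown (adjusted p = 1.18e-11) and rose by 0.52 upon QKI knockdown (adjusted p = 7.95e-08), while Sdhaf4, of the same complex, was at 0.22 and −0.61 there, the rise being lost without RBFOX2 replicate 2 or control replicate 2. Higd1a, a hypoxia-inducible factor of complex IV, was lower in each knockdown, at −0.41, −0.64 and −0.47. Without RBPMS replicate 2 the RBPMS counts were 3 and 6 in the tricarboxylic acid cycle, 10 and 3 in transcription and biogenesis, 10 and 3 in RNA processing and 17 and 6 of 39 among assembly factors.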

How the data were processed

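Poly(A)-selected RNA from 12 PAC1 cultures was sequenced as paired ends with a strand-keeping kit. Per the study's methods, reads were subsampled to an equal depth, aligned with STAR to mRatBN7.2 and counted with featureCounts. The submitters' processing notes list STAR 2.5.2a, another version than the study's, and the deposited totals are unequal (110595399 to 151665474), so whether the counts used here come from the subsampled reads is not clear. The handling of shared reads and the strand setting of the counting are not given in the sources used here. Gene-level raw counts, as deposited by the authors, were used for all results, and their table of normalised signal (noise-filtered with noisyR and quantile-normalised by the authors) was used as an alternative.

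Groups and replicate numbers came from the sample titles. Counts were filtered (filterByExpr), scaled by TMM (factors 0.948 to 1.05) and fitted in edgeR 4.0.16 (R 4.3.3) with the quasi-likelihood test, 1 mean per group and all 12 libraries. Adjusted p is Benjamini-Hochberg over 18438 genes, which hold 99.99% of all counts. SE is the absolute log2 fold change over the square root of F. The scripts were tested on simulated data. No pair of replicates was a duplicate (chi-square per degree of freedom over genes 4.64 to 57.8 in 12 pairs). The study states independent biological replicates, but the labels do not say what separates them, and p-values measure the spread between these libraries alone.

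Members, lists and named genes were chosen with earlier results of these data known. Named were the mitochondrial genes, core subunits, subunit paralogues, the 5 largest rises and falls per comparison among nuclear members with a mean of at least 5 CPM, members past the study's rule with a mean of at least 1 CPM, and, of each list, the largest rise and fall past the test with a mean of at least 5 CPM.

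Alternatives were RLE size factors, library totals alone, scaling without mitochondrial genes, no filter, halved counts, a replicate block, only the 6 libraries compared, DESeq2 1.42.0, limma 3.58.1 on log2(value + 1) of the authors' signal table, and each library left out.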

Additional observations from a re-analysis of the deposited data

How the results depend on the processing

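Values of most named genes were steady. For the 133 called log2 fold changes given in the text, 1953 of the values under the alternatives kept direction and call, 39 lost the call and 3 changed direction. The reversed values came from the authors' normalised table, where COX3 was at 0.0025 upon RBPMS knockdown and 0.026 upon QKI knockdown and CYTB at 0.026 upon QKI knockdown. Of the values that were not called, COX1 upon QKI knockdown was at −0.21 and ND3 at 0.046 in that table, ND3 at 0.057 and ATP8 at 0.014 with library totals alone, and ND3 between −0.055 and 0.0060 with 1 library left out. ND3 upon RBPMS knockdown lost its call in 7 alternatives, ND6 upon RBPMS knockdown without RBPMS replicate 1 or 3, and ND5 upon RBFOX2 knockdown without RBFOX2 replicate 3. The authors' normalised table also lost the calls of Ndufa1 and Ndufaf2 upon QKI knockdown and of CYTB upon RBPMS knockdown. It likewise lost those of Cyc1, Hsd17b10 and Sdhaf4 upon RBFOX2 knockdown.

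By the authors' normalised values, 15 of 98 nuclear members were higher and 17 lower upon RBPMS knockdown. These counts were 14 and 34 upon RBFOX2 knockdown and 42 and 8 upon QKI knockdown. The nuclear medians there were −0.10 upon RBFOX2 and 0.15 upon QKI knockdown, the mitochondrial medians 0.15 and 0.026, and the ratios of mitochondrial to nuclear values 3.59 and 3.06. Of the mitochondrial genes, 0 were higher upon RBPMS knockdown, and 5 higher and 1 lower upon RBFOX2 knockdown. With library totals alone, 0 mitochondrial genes were higher and 9 lower upon RBPMS knockdown, 6 higher and 1 lower upon RBFOX2 knockdown and 5 higher upon QKI knockdown, the mitochondrial medians were 0.078 (RBFOX2) and 0.014 (QKI), and the nuclear medians −0.094 and 0.15. Nuclear members under this scaling numbered 20 higher and 26 lower upon RBPMS, 17 and 39 upon RBFOX2, and 52 and 11 upon QKI knockdown. The same scaling moved the median of all genes by less than 0.1, to −0.036, 0.069 and 0.093 in that order. Shares of all tested genes called under these alternatives are not given here. Without the filter 8 mitochondrial genes were lower upon RBPMS knockdown. With only the 6 libraries compared, 0 were higher upon RBPMS and 3 upon RBFOX2 knockdown. The cause of these moves was not tested.

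Leaving out 1 library at a time gave 19 to 33 nuclear members higher and 13 to 45 lower upon RBPMS knockdown (19 and 45 without RBPMS replicate 2), 12 to 13 and 42 to 46 upon RBFOX2 knockdown and 36 to 41 and 12 to 14 upon QKI knockdown. For the mitochondrial genes it gave 0 to 1 higher and 4 to 9 lower upon RBPMS knockdown, 0 to 1 and 2 to 3 upon RBFOX2 knockdown, and 2 to 3 and 6 upon QKI knockdown. The nuclear median upon RBFOX2 knockdown ran from −0.16 to −0.14.

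Replicate numbers did not pair the libraries: the correlation of deviations between same-numbered libraries ran from −0.36 to 0.26 over 18 pairs and between others from −0.34 to 0.42 over 36. With the replicate block 29 nuclear members were higher and 20 lower upon RBPMS knockdown, and 0 mitochondrial genes were higher there. The direct comparisons of knockdowns without RBPMS replicate 2 or with library totals, and the counts by complex and list without RBPMS replicate 2, were added after the data had been seen. Depth limits Cox6a2, Cox4i2 and the 6 untested members.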
